A study of Mus musculus with 7 samples.

Results

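Transcripts of 10 genes of the mouse mitochondrial genome were followed through adrenal development. The genes encode subunits of the respiratory chain and of ATP synthase, and are listed in the deposited table by the symbols COX1, COX2, COX3, ND1, ND2, ND4, ND5, ND6, CYTB and ATP6. They were chosen by symbol, not by any measured value, and are 10 of 35976 genes in the table. All 10 passed the filter on low values, a mean of at least 10 normalized counts, which 16720 genes passed. The other mitochondrially encoded symbols in the table, ND3, ND4L and ATP8, are given for comparison, and mitochondrial rRNAs and tRNAs were not analysed here.

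The RNA came from pooled adrenals of C57BL/6J animals, an inbred mouse strain, and the labels name no treatment. RNA was extracted by the guanidinium thiocyanate method, and how RNA was selected for sequencing is not given in the sources used here. As background, that strain carries a deletion in Nnt, a gene for an enzyme of the inner mitochondrial membrane, so the deletion was common to all libraries. The 7 libraries were E18.5, an embryonic stage shortly before birth (40 glands, sex not determined), P1 males (postnatal day 1, 16 glands) and P1 females (22 glands), both sexes at 2 weeks (6 glands each), and both sexes at 12 weeks (4 glands each). With 1 pool behind each library, there were no replicates within a group. The values are normalized counts, reads per gene divided by 1 size factor per library, and total reads in genes were 15184210 to 23551289 per library. In the library labelled P1 female, the median of 4 Y-linked genes was 21.0% of the P1 male level, against 0.0609% at 2 weeks and 0.0132% at 12 weeks, so every value from that library is from a pool with Y-linked transcripts. All 8 adrenal cortex and all 8 chromaffin cell markers had more than 3 reads in every library, which does not measure how much of each pool was adrenal.

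Mitochondrial DNA is a small circle present in many copies per cell. Both strands are transcribed as long precursors, which are cut into separate messenger, ribosomal and transfer RNAs, largely at the transfer RNAs that lie between the genes. ND6 is encoded on the strand opposite to the other protein genes. The proteins join nuclear-encoded subunits in complex I (ND genes), complex III (CYTB), complex IV (COX genes) and complex V (ATP6), while complex II has only nuclear subunits. In the adrenal cortex, mitochondria also hold the enzymes that begin and end corticosteroid synthesis.

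Parts of mitochondrial DNA have been copied into the nuclear genome, so a read of these genes can match more than 1 place. The sequences below, from GENCODE M21 transcripts of GRCm38, were chosen for what they share, since a read that lies wholly inside an identical copy fits both places. The COX1 and ND4 stretches hold the 2 ends of a nuclear copy, the COX2 stretch lies inside it, the ND3 pair shows a differing base, and the ND5 stretch shows an overlap with ND6. Capitals in the first 3 mark bases also present in the nuclear copy (Gm29216 for COX1, Gm28439 for ND4, Gm28661 for COX2). In the ND3 and Gm28438 pair capitals mark the 1 base that differs, and in ND5 they mark the 14 bases that are also in ND6 on the opposite strand.
COX1 (chrM:6334-6453, plus strand): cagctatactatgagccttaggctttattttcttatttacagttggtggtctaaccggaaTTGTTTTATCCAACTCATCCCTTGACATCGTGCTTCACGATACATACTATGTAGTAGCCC
ND4 (chrM:10983-11102, plus strand): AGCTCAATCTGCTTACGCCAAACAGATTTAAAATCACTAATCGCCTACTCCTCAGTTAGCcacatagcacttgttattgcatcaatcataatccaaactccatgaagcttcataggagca
COX2 (chrM:7013-7132, plus strand): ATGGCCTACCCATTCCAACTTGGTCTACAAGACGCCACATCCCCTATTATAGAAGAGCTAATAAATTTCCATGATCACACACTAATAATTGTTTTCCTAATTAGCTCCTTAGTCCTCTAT
ND3 (chrM:9459-9518, plus strand): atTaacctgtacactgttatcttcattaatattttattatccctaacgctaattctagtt
Gm28438 (chr1:24613060-24613119, minus strand): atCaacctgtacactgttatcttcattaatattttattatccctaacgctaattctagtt
ND5 (chrM:13486-13565, plus strand): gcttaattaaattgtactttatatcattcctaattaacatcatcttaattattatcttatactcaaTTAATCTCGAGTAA

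The nuclear copy named above is a block of 7 annotated pseudogenes at chr1:24611535-24616197, in the order of the mitochondrial genes, and corresponds to chrM:6394-11042. Other copies are given below. COX2 was identical to Gm28661 over 681 bases, COX3 to Gm28437 over 783, ATP6 to Gm10925 over 678 and ND4L to Gm10222 over 294. The last 479 bases of COX1 were identical to Gm29216 and the first 876 bases of ND4 to Gm28439. ND3 differed from Gm28438 at 1 of 345 bases.
Each gene was divided into all windows of 50 bases, and the share of windows with an exact match in a nuclear GENCODE transcript was counted on both strands. The share was 100% for COX2, 99.9% for COX3 and 99.5% for ATP6, against 62.2% for ND4, 51.1% for COX1, 8.19% for ND2, 7.61% for ND5 and 0 for ND1, ND6 and CYTB. Copies outside the chr1 block are counted in these shares. For COX1, Gm29216 held 430 shared windows and Gm13340 on chr2 held 411, spread between bases 1 and 1457. Also on chr2, Gm13341 shared 224 windows with COX2, and Gm13339 shared 81 with ND2. Those of ND5 were in Gm11407 on chr4 (64) and Gm4076 on chr13 (73). The whole genome was not searched, and the read length and the treatment of reads with several matches are not given in the sources used here.

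Among the members, levels per length were lowest in the 3 genes with nearly all windows shared. Averaged over the 7 libraries, COX2 had 798 normalized counts per kb of gene (range 599 to 1355), COX3 758 (407 to 1214) and ATP6 380 (234 to 610). ND3 and ND4L, with 98.0% and 98.8% of windows shared, had 903 and 84.5. Among the members with smaller shares, COX1 had 489199 per kb (353615 to 773632), ND1 187368, CYTB 99481, ND2 88083, ND5 66810, ND4 58865 and ND6 8184 (4538 to 13434). The lowest library of ND6 was thus above the highest of COX2, COX3 and ATP6, although COX1, COX2 and COX3 are subunits of the same enzyme. The range of COX1 lay above that of ND1, ND1 overlapped CYTB and ND2, and CYTB, ND2, ND5 and ND4 overlapped one another. ATP8 had 107 per kb, with none of its 50-base windows shared. Its last 43 bases overlap ATP6 and so lie in the nuclear copy of ATP6. The rest of ATP8 corresponds to the 233 bases between the nuclear copies of COX2 and ATP6, where no transcript is annotated. The mitochondrial genome also has 233 bases there. The part of shared sequence in these levels was not tested, so the levels of COX2, COX3 and ATP6, and those of COX1 and ND4 in part, are uncertain as amounts of RNA. None of the nuclear copies found had a value in the deposited table.

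**Figure D1:**
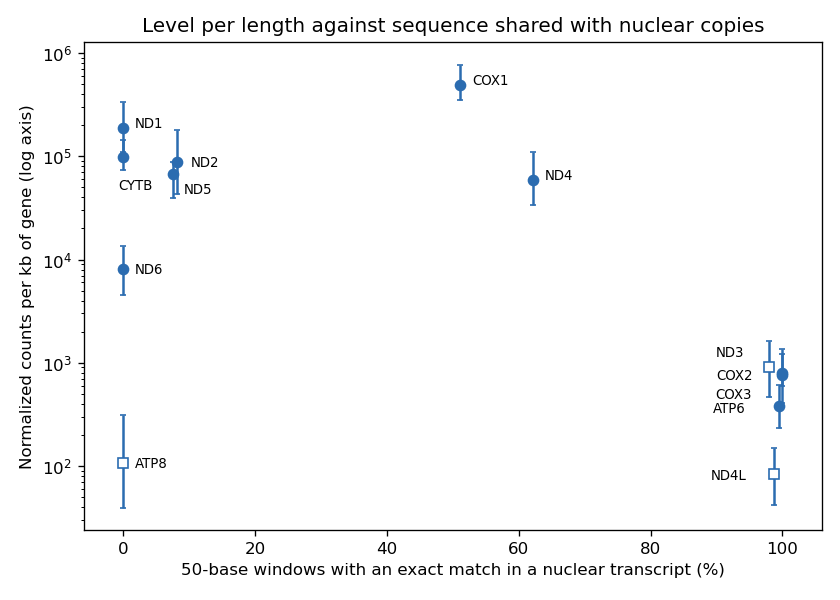
Normalized counts per kb of gene (log axis; point, mean of 7 libraries; bar, lowest to highest library) against the percentage of 50-base windows with an exact match in a nuclear transcript, with filled circles for the 10 members and open squares for ND3, ND4L and ATP8. The 5 genes with nearly all windows shared lie between 84.5 and 903 on average, below every member with a smaller share.

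Together the 10 genes took 5.33% of reads in genes at E18.5 (95% Clopper-Pearson interval 5.33 to 5.34%, counting error only). The share was 6.16% in P1 males and 5.20% in P1 females, 5.497% (males) and 6.48% (females) at 2 weeks, and 7.92% (males) and 10.03% (females) at 12 weeks. In pooled tissue, more cells of a type and more RNA per cell cannot be told apart. The 12-week libraries were the highest, and the sexes were in the opposite order at P1 from later ages. COX1 alone was 2.77 to 5.47% of reads, and ranked first or second among all genes in each library. The gene Rn7sk was above it in P1 females (616932 normalized counts) and 12-week males (1123245).

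**Figure D2:**
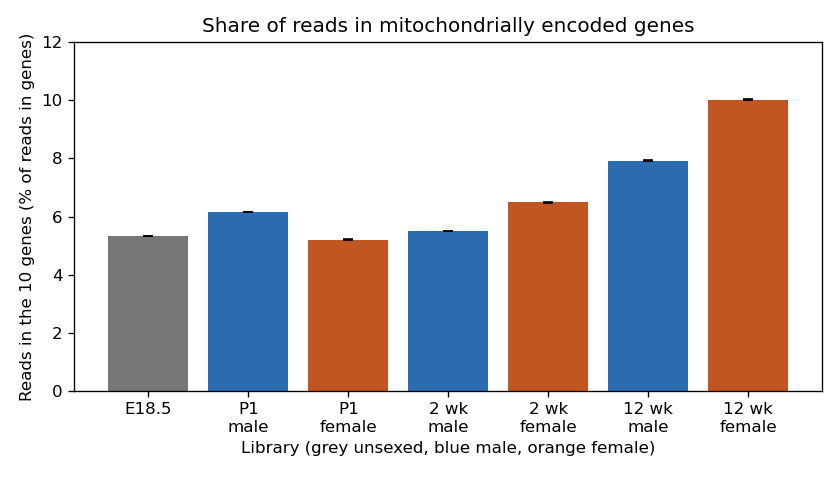
Percentage of all reads in genes that fell in the 10 mitochondrially encoded genes, 1 bar per library from 0, with the exact interval for counting error as a black bar. The 12-week libraries stand at 7.92% and 10.03%, above the 5.20 to 6.48% of the others.

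COX1, the catalytic core of complex IV, measured 546335 normalized counts at E18.5, 636885 (males) and 563968 (females) at P1, 670588 and 740484 at 2 weeks, and 937169 and 1195261 at 12 weeks. The level was higher at each later age within each sex.
COX2, which takes electrons from cytochrome c, had 468.8, 500.8, 409.5, 416.3, 524.0, 574.6 and 926.6 in the same order of libraries. COX3, a structural subunit, had 583.9, 533.5, 319.0, 478.6, 603.4, 687.9 and 951.5. Both were lowest in P1 females and highest in 12-week females. COX2 rested on 371 to 819 reads per library, and COX3 on 289 to 841.
ATP6, the membrane subunit through which protons pass in ATP synthase, had 228.5, 203.7, 163.4, 159.2, 283.2, 356.5 and 415.2, from 148 to 367 reads. Its highest libraries were also those of 12 weeks.

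CYTB, the haem-carrying core of complex III, had 87836 at E18.5, 95351 and 92815 in P1 males and females, 84787 and 127584 at 2 weeks, and 142360 and 165907 at 12 weeks. It had the smallest range of the members, 1.96-fold from lowest to highest library.
ND1, in the membrane arm of complex I, had 156221 at E18.5, 176612 and 140943 at P1, 105737 and 141318 at 2 weeks, and 209846 and 324500 at 12 weeks (males, then females). ND2, another membrane-arm subunit, had 67136, then 74562 and 61622, 44528 and 68858, and 136495 and 186808. ND4, one of the proton-pumping subunits, had 60277, then 73049 and 56994, 46383 and 70371, and 108991 and 151744. These 3 were lowest in 2-week males and highest in 12-week females, and ND2 had the widest range of the members, 4.20-fold.
ND5, the proton-pumping subunit at the far end of the arm, had 104285 at E18.5, 126345 and 138908 at P1, 71732 and 111700 at 2 weeks, and 141074 and 158981 at 12 weeks. Its P1 and 12-week levels were close, with 2-week males far below.
ND6, also in the membrane arm, had 2355 at E18.5, 2771 and 3963 at P1, 4610 and 6972 at 2 weeks, and 4393 and 4667 at 12 weeks. It was the only member with its highest library at 2 weeks.

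**Figure D3:**
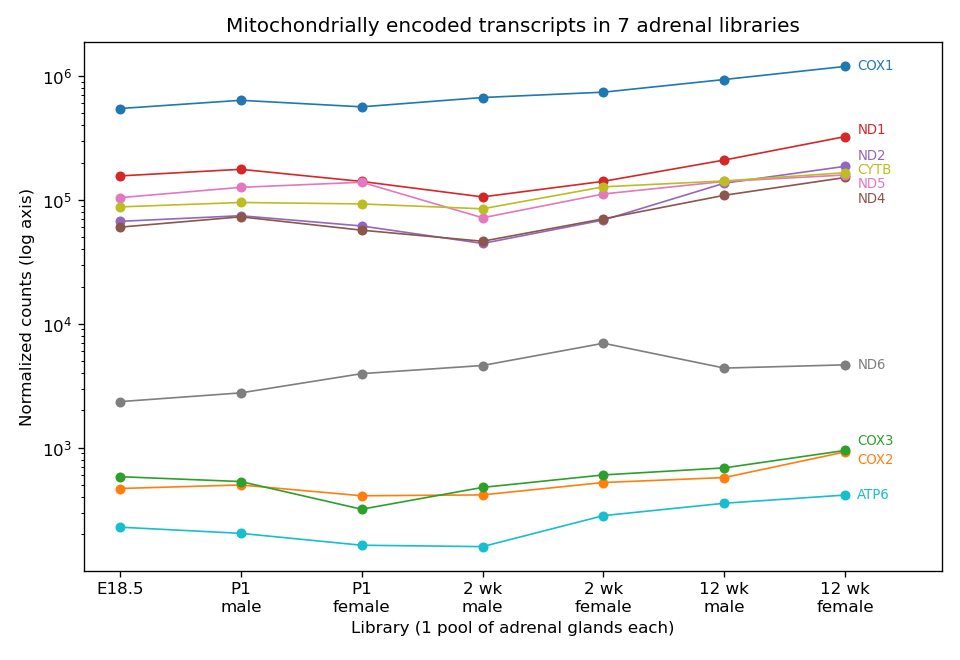
Normalized counts (log axis) of each of the 10 genes in the 7 libraries, joined by lines for legibility. COX2, COX3 and ATP6 lie at 951.5 or below in every library, ND6 between 2355 and 6972, and the other 6 at 44528 or above.

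Changes with age were tested in limma on log2(normalized count + 1) over the 6 postnatal libraries with sex as a block, so that the 2 sexes stood in for replicates. P-values were adjusted over 16720 genes with a threshold of 0.05. With no filter on low values, 0 members passed in any comparison.
Between P1 and 12 weeks all 10 members had positive differences, and 4 of 10 passed as higher and 0 as lower. Of all genes, 17.6% passed as higher and 23.5% as lower. ND2 rose by 1.24 ± 0.304 log2 (SE; adjusted p 0.0189), ATP6 by 1.07 ± 0.292 (0.0267), COX3 by 0.97 ± 0.301 (0.0413) and ND4 by 0.995 ± 0.311 (0.0421). All 4 were higher in both sexes. The median over the members was 0.77, beside -0.03 over all genes. COX1 differed by 0.82 ± 0.496 (adjusted p 0.225), with the largest SE of the members, and ND5 by 0.18 ± 0.289 (0.649). Each SE is drawn towards a trend of variance with level over all genes, so it is not the gene's own spread alone.
In females, 7 of 10 members were at least 2-fold higher at 12 weeks than at P1, and in males 0 of 10, a difference between sexes that was not tested. Of all genes, 12.3% were at least 2-fold higher and 21% lower in females, and 12.9% higher and 19.4% lower in males. Without the library labelled P1 female, fewer members passed and their median was 0.51, and fewer also passed without either 2-week library. With both scalings to equal totals, only ND2 and ATP6 passed. Without a trend in the variance model ND2 and COX1 passed (COX1 adjusted p 0.0427). DESeq2 on the recovered reads called 7 members, with its share of all genes not given here.

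Between 2 weeks and 12 weeks, 9 of 10 members had positive differences, with a median of 0.69 beside -0.03 over all genes, but in limma only ND2 passed, at 1.53 ± 0.304 (adjusted p 0.0217). Of all genes, 5.4% passed as higher and 9.89% as lower. ND4 was just outside, at 1.17 ± 0.311 (adjusted p 0.0510), and ND1 was at 1.09 ± 0.356 (0.0870). ND6 was the exception in sign, at -0.32 ± 0.174 (0.249). ND2 was higher by 1.62 in males and 1.44 in females. In each sex 3 of 10 members were at least 2-fold higher and 0 lower. Of all genes, 9.59% were at least 2-fold higher and 11.5% lower in males, and 7.17% higher and 13.4% lower in females. The ND2 call was lost on leaving out either P1 library or either 2-week library, while more members passed without 12-week males. In DESeq2 6 members passed, with its share of all genes not given here.

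Between P1 and 2 weeks the members had no common direction. ND6 rose by 0.77 ± 0.174 (adjusted p 0.0300 in limma), by 0.73 in males and 0.81 in females. Of all genes, 5.89% passed as higher and 10.5% as lower. None of the other 9 passed. Their differences ran from -0.57 ± 0.289 (ND5, adjusted p 0.229) to 0.38 ± 0.301 (COX3, 0.429). In males 8 of 10 members were lower at 2 weeks, with a median of -0.31, and in females 9 of 10 were higher, with a median of 0.37, none by 2-fold in either sex. The counting interval spanned 0 for COX3 in males and ND1 in females. Of all genes, 6.66% were at least 2-fold higher and 13.8% lower in males, and 6.36% higher and 12.8% lower in females. The ND6 call was lost without either P1 or either 2-week library and without a trend.

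**Figure D4:**
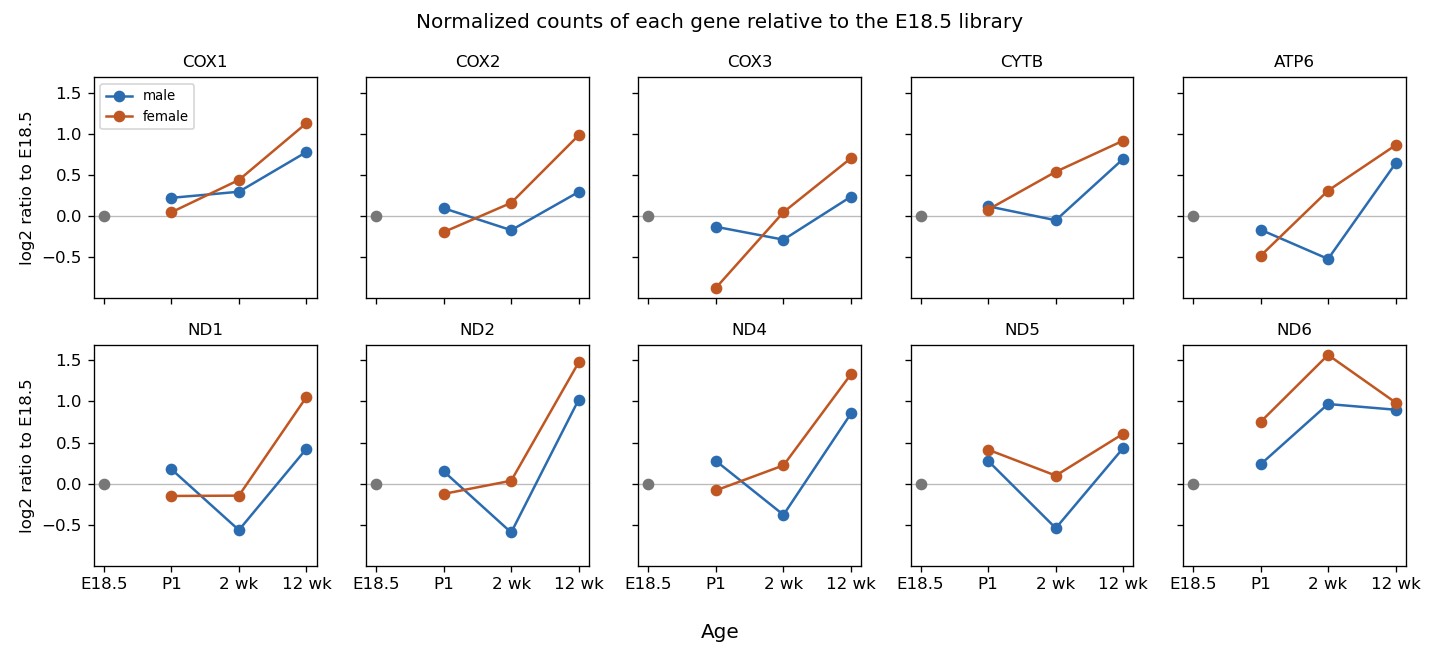
log2 ratio of each gene's normalized counts to the E18.5 library by age, with males in blue and females in orange, 1 library per point. ND2 reaches its highest points at 12 weeks in both sexes, while ND6 is highest at 2 weeks.

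Across birth no member moved 2-fold. The E18.5 library, 1 unsexed pool, was not in the fits, so this step was not tested. From E18.5 to P1 males, 8 of 10 members were higher, with a median log2 difference of 0.16. The counting intervals of COX2, COX3 and ATP6 spanned 0 there. To P1 females, 4 were higher and 6 lower, with a median of -0.10 (-0.19 with equal totals). COX3 had the largest difference, -0.87 (counting interval -1.08 to -0.67) to P1 females against -0.13 to P1 males. ND6 was 0.75 and 0.23. Of all genes, 4.9% were at least 2-fold higher and 3.5% lower in P1 males, 7.04% higher and 6.12% lower in P1 females, and 2.91% higher and 2.24% lower in both.

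Sexes were compared with age as a block. All 10 members had a negative male minus female difference, from -0.40 ± 0.142 (ND6) to -0.02 ± 0.246 (COX3), but 0 of 10 passed in limma (adjusted p 0.999 for each; ND6 alone had an unadjusted p under 0.05, at 0.0277). In that fit 0 genes passed as higher in males and 0.00598% of all genes as lower. edgeR and DESeq2 on the recovered reads also called 0 members. COX3 turned positive at 0.041 with equal totals. Leaving out either library of 1 age, the members' median of -0.24 became -0.46 without a P1 library, -0.09 without a 2-week library and -0.15 without a 12-week library. COX3 and ATP6 turned positive without either 2-week library (0.14 and 0.049), and COX1 and COX3 without either 12-week library (0.016 and 0.20).
The single ages differed in direction. At P1, 8 of 10 members were higher in the male library, with a median of 0.28, and ND5 (-0.14) and ND6 (-0.52) were lower. At 2 weeks all 10 were lower in males, with a median of -0.59 and a range of -0.83 (ATP6) to -0.14 (COX1). At 12 weeks all 10 were again lower in males, with a median of -0.40 and a range of -0.69 (COX2) to -0.09 (ND6), though the counting interval of ATP6 spanned 0 (-0.46 to 0.015). No member was 2-fold apart at any age. Of all genes, 3.75, 0.568 and 4.84% were at least 2-fold higher in males at P1, 2 weeks and 12 weeks, and 3.03, 3.67 and 3.98% at least 2-fold lower. These values come from 1 pool per sex and age, so pool and sex cannot be told apart. Markers of other tissues also differed between the pools of 1 age. At P1, kidney markers summed to 10579 in males and 2830 in females, exocrine pancreas markers to 6285 and 96.0, and muscle markers to 80499 and 147622. Of the adrenal itself, cortex markers summed to 425462 in P1 males and 256744 in P1 females, and chromaffin markers to 48003 and 93291. At 2 weeks, muscle markers summed to 192 in males and 8433 in females, and liver markers to 13062 and 34046. Their part in the sex differences was not tested.

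The balance among the members also shifted, and a ratio within a library does not depend on scaling between libraries. COX1 made up 53.3% of the members' reads at E18.5, 53.7 and 53.2% at P1, 65.1 and 58.4% at 2 weeks, and 55.7 and 54.6% at 12 weeks (males, then females).
The ratio of ND5 to ND6 was 44.3 reads to 1 at E18.5, 45.6 in P1 males and 35.1 in P1 females. It was 15.6 and 16.0 at 2 weeks, and 32.1 and 34.1 at 12 weeks. The 2-week libraries thus stood apart from the rest in both sexes. ND5 and ND6 lie end to end on opposite strands with the 14-base overlap printed above. The use of strand in counting is not given in the sources used here, so reads of ND6 and of RNA from its opposite strand cannot be told apart.
ND2 per read of CYTB was 0.764 at E18.5, 0.782 and 0.664 at P1, 0.525 and 0.540 at 2 weeks, and 0.959 and 1.13 at 12 weeks. Across the 7 libraries, Pearson's r of log2 values was between 0.32 and 0.99 for the 36 pairs of members without ND6, and between -0.02 and 0.53 for the 9 pairs with it. These points share library, depth and age.

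Nuclear genes for subunits of the same complexes rose in largest number before 2 weeks, not after. Of 73 nuclear subunits of complexes I, III, IV and V, 29 rose and 1 fell between P1 and 2 weeks in limma, 0 rose and 5 fell between 2 weeks and 12 weeks, and 16 rose and 1 fell between P1 and 12 weeks. Their medians were 0.65, -0.25 and 0.33 log2, beside 0.09, 0.69 and 0.77 for the mitochondrially encoded members. Of all genes, 5.89, 5.4 and 17.6% passed as higher in the 3 comparisons and 10.5, 9.89 and 23.5% as lower. Without the library labelled P1 female, fewer nuclear subunits passed in the comparisons with P1, and their medians were 0.43, -0.25 and 0.15. How many of all genes passed in that fit is not given here, and that number changed widely with the library left out. Whether the 2 groups of genes differed was not tested.
In complex I, 17 of 36 nuclear subunits rose by 2 weeks, with Ndufv1 (1.11), Ndufab1 (1.07) and Ndufb4 (1.01) the highest, and Ndufv1 then fell by 0.91. In complex III, 7 of 9 rose, with Uqcrq (1.26) and Cyc1 (1.21) the highest. In complex V, 1 of 15 rose, Atp5h (0.57). In complex IV, 4 of 13 rose, led by Cox8b (4.85) and Cox7a1 (3.99), isoforms known from brown fat, heart and muscle. Cox6a2, the muscle and heart isoform, fell by 4.20, from 100.7 and 411.7 normalized counts to 2.67 and 32.6. From 2 weeks to 12 weeks Cox7a1 (-2.32) and Cox8b (-1.85) were among the 5 nuclear subunits that fell. Leaving out those 3 isoforms, 27 of 70 rose and 0 fell by 2 weeks, and 0 rose and 3 fell from 2 weeks to 12 weeks. Of the 4 subunits of complex II, which has no mitochondrially encoded member, Sdhc (0.64) and Sdhd (0.80) rose by 2 weeks.
The sum of mitochondrially encoded over the sum of nuclear subunit counts was 7.14 at E18.5, 8.09 and 8.16 at P1, 5.22 and 5.67 at 2 weeks, and 11.0 and 12.5 at 12 weeks (males, then females). It was lowest at 2 weeks and highest at 12 weeks in both sexes. These sums compare libraries and not genes, since counts were not divided by length.

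**Figure D5:**
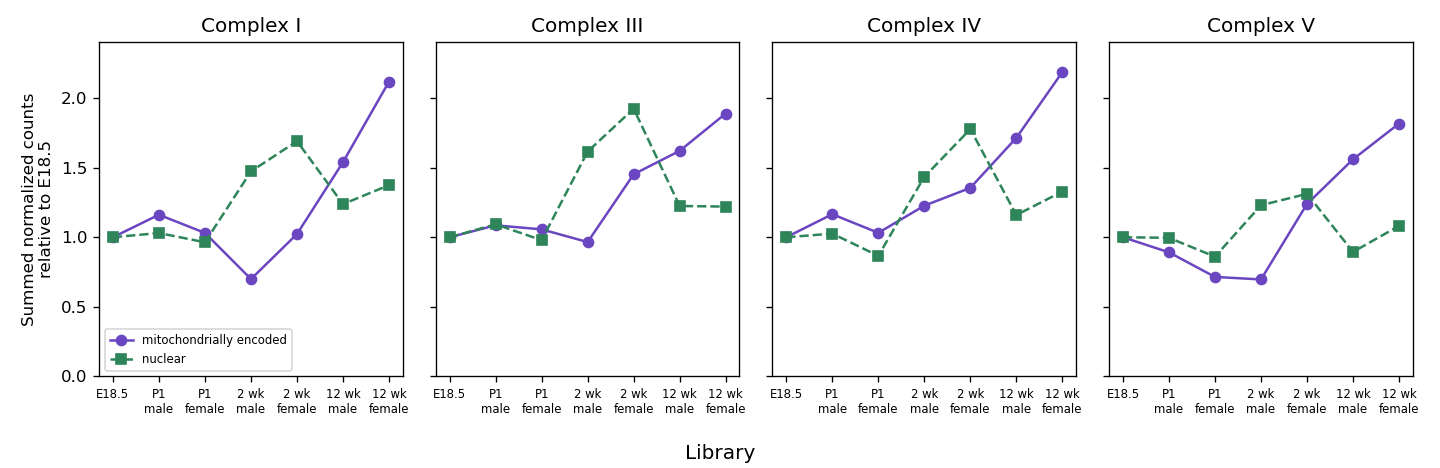
Summed normalized counts relative to the E18.5 library for mitochondrially encoded members (purple circles) and nuclear subunits (green squares) of complexes I, III, IV and V in 7 libraries. The nuclear sums are highest in 2-week females in each complex, and the mitochondrially encoded sums in 12-week females.

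Genes that act on mitochondrial DNA and RNA were taken from fixed lists. Of 15 genes for mitochondrial transcription and DNA maintenance, 0 passed in limma between P1 and 2 weeks or between 2 weeks and 12 weeks. In these comparisons 5.89 and 5.4% of all genes passed as higher, and 10.5 and 9.89% as lower. Between P1 and 12 weeks 2 rose, Mterf3 (0.81) and Tfb2m (0.60), a factor needed to start transcription. In that comparison 1 fell, Top1mt (-1.32), the mitochondrial topoisomerase, beside 17.6% of all genes passing as higher and 23.5% as lower. Top1mt went from 1260 to 268 normalized counts in males, but only from 1279 to 957 in females.
Of 18 genes for RNA processing, stability and decay, 2 rose and 0 fell from P1 to 2 weeks, beside 5.89% and 10.5% of all genes. These were Pnpt1, a polynucleotide phosphorylase (1.21), and Rexo2 (0.67). From 2 weeks to 12 weeks 0 rose and 1 fell, Pnpt1 (-0.62), beside 5.4% and 9.89% of all genes. Rexo2 (1.01), Slirp (0.72), which binds mitochondrial messenger RNA, and Fastkd2 (0.65) were among 4 of 18 that rose from P1 to 12 weeks, with 0 falling, where 17.6% of all genes passed as higher and 23.5% as lower. Of 9 regulators of mitochondrial biogenesis, 2 rose and 0 fell to 2 weeks, 0 rose and 3 fell from 2 weeks to 12 weeks, and 1 rose and 4 fell from P1 to 12 weeks. For all genes the shares passing as higher were 5.89, 5.4 and 17.6%, and as lower 10.5, 9.89 and 23.5%. From 2 weeks to 12 weeks, the coactivators Ppargc1b (-2.33) and Ppargc1a (-2.18) fell most, and Gabpa fell by 0.59.

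The genes most like the members, by Pearson's r with the mean of their log2 values over the 7 libraries among 12244 other genes with a mean of at least 100, were Mettl21a (0.99), Ggact (0.98), Anxa7 (0.98), Tyw5 (0.97) and Entpd5 (0.96). Mettl21a spanned only 207.3 to 280.6 normalized counts, and Entpd5 1585 to 4686. With 7 points from as many pools, r is a description of these libraries.

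Markers of the tissues in the pools moved over the same ages. The summed level of 8 adrenal cortex markers was 611028 at E18.5, 425462 and 256744 at P1, 529812 and 533741 at 2 weeks, and 856376 and 1133649 at 12 weeks, highest in 12-week females like most members. Cyp11b1, Cyp21a1, Hsd3b1, Nr5a1 and Mc2r were each highest there. Star was highest in 12-week males (372882, females 357347), and Cyp11a1 (74293) and Scarb1 (73113) at E18.5. The 8 chromaffin markers summed to 42040 at E18.5, 48003 and 93291 at P1, 125652 and 107829 at 2 weeks, and 83619 and 99848 at 12 weeks. The 8 adipocyte markers summed to 2916 to 3076 up to P1, 44702 and 49463 at 2 weeks, and 33596 and 28114 at 12 weeks. The 8 liver markers summed to 261191 to 380249 up to P1, 13062 and 34046 at 2 weeks, and 436 and 417 at 12 weeks. The 8 muscle markers summed to 39761 to 147622 up to P1, 192 and 8433 at 2 weeks, and 53.1 and 54.3 at 12 weeks. The 8 erythroid markers summed to 62106 to 116187 up to P1 and 5482 to 26199 later. The 8 kidney markers summed to 1459 at E18.5, 10579 and 2830 at P1, and 35.0 to 70.3 later, and the 8 exocrine pancreas markers to 30.2, 6285 and 96.0, and 1.76 to 3.39 later. Both were highest in P1 males, a library that enters the limma fits, the P1 sex difference and each P1 comparison in males. At 12 weeks 5 muscle markers in males and 3 in females, and 2 liver and 1 erythroid marker in each sex, had at most 3 reads. The part of these lists in the differences of the members was not tested.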

How the data were processed

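The deposited values are 1 signal per gene and library (35976 symbols, 7 libraries): whole reads divided by 1 size factor per library. Whole reads were recovered from the deposited signal by dividing by the step of each column, and 100% of values came out whole within 0.01 reads. CASAVA 1.8.2, HISAT2 2.1.0, HTSeq 0.9.1, DESeq2 2.11.40.6 and mm10 are named in the submitters' processing notes, with no role or options. Strand use and the treatment of reads with several matches are not given in the sources used here. Coordinates are of GRCm38 (GENCODE M21), with the same coordinates in RefSeq GRCm38.p6 for all 13 mitochondrial protein genes. That assembly also gave gene lengths.

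Log2 differences were taken after adding 1 to the normalized count, so changes of low genes are understated. Genes with a mean of at least 10 were fitted in limma 3.58.1 (R 4.3.3; lmFit, eBayes with a trend, two-sided, Benjamini-Hochberg) on the 6 postnatal libraries with terms for age and sex. Libraries are single pools, and the fits held both age and sex. P-values therefore rest on how far age differences varied between the sexes, or sex differences between ages, together with pool differences. The opposite signs flagged below enter that spread. The variance of each gene was also drawn towards a trend with level over all genes. Spread between animals is not measured. Alternatives were edgeR 4.0.16 and DESeq2 1.42.0 on recovered reads, other scalings, filters and pseudocounts, and leaving out each library. edgeR called 0, 2795, 2396 and 6754 genes for sex, P1 to 2 weeks, 2 weeks to 12 weeks and P1 to 12 weeks. The scripts were tested on simulated data. All members are named. Of the related lists, up to 3 genes past the threshold with the highest and 3 with the lowest difference were eligible per age comparison, and the 5 genes most like the members are given. Members and lists were chosen with earlier results of these data known.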

Additional observations from a re-analysis of the deposited data

Results flagged for a closer look

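Male minus female differences of 8 of 10 members had opposite signs at P1 and at both later ages, each from 1 library per sex. At P1 they were 0.18 for COX1, 0.29 for COX2, 0.74 for COX3, 0.33 for ND1, 0.27 for ND2, 0.36 for ND4, 0.04 for CYTB and 0.32 for ATP6 (log2). At 2 weeks the same genes were at -0.14, -0.33, -0.33, -0.42, -0.63, -0.60, -0.59 and -0.83. Over all 10 members the P1 median of 0.28 stood against -0.59 (2 weeks) and -0.40 (12 weeks). The change of sign was not tested. The library labelled P1 female held Y-linked transcripts at 21.0% of the male level, and its cortex markers summed to 256744 against 425462 in P1 males. Its chromaffin markers summed to 93291 against 48003 in P1 males. The P1 male library had kidney markers at 10579 against 2830 in P1 females and exocrine pancreas markers at 6285 against 96.0, with muscle markers at 80499 against 147622. The part of these in the differences was not tested.

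From P1 to 2 weeks, the differences of 7 members had opposite signs in the sexes, also untested. In males COX2 was at -0.27, COX3 at -0.16, ND1 at -0.74, ND2 at -0.74, ND4 at -0.66, CYTB at -0.17 and ATP6 at -0.35. In females the values were 0.36, 0.92, 0.00, 0.16, 0.30, 0.46 and 0.79. The counting interval spanned 0 for ND1 in females (0.0038, -0.0068 to 0.014) and for COX3 in males (-0.32 to 0.010), so neither shows a direction there.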

How the results depend on the processing

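No paired analysis was possible because each group held 1 library and so had no replicate numbers, and the pairing of sexes within an age is already a term of the fits. Over 600 alternatives for single members, 526 kept direction and side of the threshold, 35 lost a call, 18 gained one and 21 reversed. Most of the 600 were of differences not called in the main fit, which had no call to lose. Of the 35 lost calls, 20 came from leaving out 1 library. The number of members called for P1 to 2 weeks, 2 weeks to 12 weeks and P1 to 12 weeks was 1, 1 and 4 in limma, and 1, 1 and 3 in edgeR (COX3 lost). DESeq2 called 2, 6 and 7. The share of all genes DESeq2 called is not given here, so its counts are not read as a result about the members. With all genes of a mean above 0 it was 0, 0 and 0 (0, 0 and 4691 of all genes). A mean of at least 50 gave 2 for 2 weeks to 12 weeks. Both scalings to equal totals, with and without mitochondrially encoded genes, gave 2 for P1 to 12 weeks. Without a trend the counts for P1 to 2 weeks and P1 to 12 weeks were 0 and 2. Leaving LOC101056014 out of the genes tested, chosen after seeing the data, gave 2 for 2 weeks to 12 weeks. That gene ranged from 1473 normalized counts in P1 males to 524646 in P1 females. Equal totals moved the median of all genes to -0.20 for 2 weeks to 12 weeks and -0.15 for P1 to 12 weeks (log2). Without the mitochondrially encoded genes these were -0.15 and -0.09.

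With equal totals, and then also without mitochondrially encoded genes, the COX3 sex difference turned to 0.041 and 0.030, the members' median sex difference was 0.36 and 0.38 at P1 and -0.53 and -0.55 at 2 weeks, and the median from E18.5 to P1 females was -0.19 and -0.19. At 12 weeks it was -0.36 with equal totals. Without the 10 most abundant other genes, the members' share of reads was 5.78% at E18.5, 6.60 and 5.80% at P1, 5.94 and 7.20% at 2 weeks, and 9.33 and 11.5% at 12 weeks (males, then females).

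Leaving out 1 library at a time, the number of members called ranged from 0 to 1 for P1 to 2 weeks, 0 to 4 for 2 weeks to 12 weeks and 0 to 5 for P1 to 12 weeks, and was 0 for sex. A library left alone at its age is assumed there to vary like the others. The sex difference ranged from -0.25 to 0.016 for COX1, -0.40 to 0.20 for COX3 and -0.52 to 0.049 for ATP6. From P1 to 2 weeks it ranged from -0.36 to 0.44 for COX2, -0.19 to 0.95 for COX3, -0.79 to 0.056 for ND1, -0.70 to 0.12 for ND2, -0.62 to 0.27 for ND4, -0.10 to 0.39 for CYTB and -0.22 to 0.66 for ATP6. A design of 1 pool per group limits precision more than depth for the abundant members. COX2, COX3 and ATP6 rested on 148 to 841 reads per library.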
